A study of Mus musculus with 8 samples.

Results

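Calcineurin block with FK506 was examined for its effect on trimethylation of histone 3 lysine 4 (H3K4me3) at promoters of curdlan-stimulated D1 cells, by comparing the peak list of curdlan with FK506 with that of curdlan alone. Peaks of the 2 lists that overlapped by at least 1 bp were joined into 13823 paired regions, which took in 94.3% of the 14872 curdlan peaks and 95.3% of the 14878 peaks with FK506. A region was called a promoter where the TSS nearest to the summit of its curdlan peak lay within 1 kb. There were 10308 such regions, of which 10006 had at least 100 tags in a list and form the set described here, out of 54987 peaks in the 4 lists of the study. The 10006 regions lay at 9310 genes, and 9426 of them at protein-coding genes. The change of a region is the log2 ratio of its tags per 1000000 ChIP tags (RPM) with FK506 over curdlan, minus the median over all paired regions, so a negative value means less of the mark when calcineurin was blocked. Lowered and raised mean a change of 1.5-fold or more from that median.

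D1 is a long-term line of splenic dendritic cells from C57BL/6 mice, grown with GM-CSF. H3K4me3 was profiled by ChIP-seq in non-treated cells (NT), in cells stimulated for 2 h with curdlan at 10 µg/ml, and in cells that had FK506 beside curdlan over the same 2 h, and NFATc2 carrying a V5 tag was mapped after 30 min of curdlan. The NFATc2 cells were D1 cells transduced with a lentiviral vector and sorted for low expression of the tagged protein, so they hold tagged NFATc2 beside their own. The labels give neither the dose of FK506 in these libraries nor whether the H3K4me3 libraries came from the transduced cells.

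Curdlan is a particulate β-glucan that is bound by dectin-1, a C-type lectin receptor of myeloid cells. Dectin-1 signals through Syk and phospholipase Cγ, calcium rises, and the phosphatase calcineurin removes phosphate groups from NFAT proteins, which then enter the nucleus. FK506 forms a complex with the immunophilin FKBP12 that blocks calcineurin. H3K4me3 marks the nucleosomes around the start of active and poised genes, and its peaks commonly reach from the TSS into the gene.

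With a lone ChIP library and a lone input for every condition, no test between conditions could be run and the biological spread is not known. Unless named otherwise, the intervals given here are 95% exact intervals of a ratio of tag counts and cover counting error only. The header totals were 21289349 ChIP tags with curdlan and 19468498 with FK506, and 52.8% and 51.3% of them lay in peaks. The median uncentred log2 ratio was -0.05 and ranged from -0.09 in the twentieth of regions with fewest tags to -0.01 in the twentieth with most. The ratio of ChIP to input tags was 2.29 with curdlan and 1.96 with FK506, and the part of this in the changes was not tested. All 16 dendritic cell marker promoters had a peak in both lists, with changes from -0.25 to 0.20. The -0.25 was read for Tyrobp in a broad region whose summit lay 8840 bp from its TSS and nearest to Nfkbid. A peak lay at 1 of 8 T cell (Lck), 0 of 6 B cell, 1 of 3 NK cell (Klrk1), 0 of 6 fibroblast and 1 of 3 neural (Pax6) marker promoters. Cd3e, Ncr1 and Col1a1 were among those without a peak.

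The protein-coding promoters that were lowered most with FK506 belonged to 1190002H23Rik, Tnfsf14, Ccl1 and Siglec5. The mark fell by between 1.71 and 2.20 on the log2 scale at these 4 genes. Their promoter sequences are printed with that of Il23a, a cytokine gene among the targets of the study, because they carry the largest falls at protein-coding genes and because the NFATc2 list holds a summit within 1 kb of the TSS at all but Ccl1. The sequences were read from the mm9 genome on the strand of the gene, 5′ to 3′, from 250 bases before the TSS to 50 bases from it onward. Capitals mark the NFAT core GGAAAA or its complement TTTTCC and the AP-1 motif TGACTCA or its complement TGAGTCA. The windows are chr14:79701393-79701692 (minus strand), chr17:57333563-57333862 (minus), chr11:81993265-81993564 (minus), chr7:50606668-50606967 (plus) and chr10:127735091-127735390 (minus).
1190002H23Rik: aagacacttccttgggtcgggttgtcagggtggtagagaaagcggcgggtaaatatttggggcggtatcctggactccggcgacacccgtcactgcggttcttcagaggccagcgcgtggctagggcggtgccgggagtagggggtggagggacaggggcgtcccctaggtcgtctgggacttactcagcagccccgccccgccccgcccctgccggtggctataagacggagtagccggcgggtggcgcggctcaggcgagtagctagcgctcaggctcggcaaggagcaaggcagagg
Tnfsf14: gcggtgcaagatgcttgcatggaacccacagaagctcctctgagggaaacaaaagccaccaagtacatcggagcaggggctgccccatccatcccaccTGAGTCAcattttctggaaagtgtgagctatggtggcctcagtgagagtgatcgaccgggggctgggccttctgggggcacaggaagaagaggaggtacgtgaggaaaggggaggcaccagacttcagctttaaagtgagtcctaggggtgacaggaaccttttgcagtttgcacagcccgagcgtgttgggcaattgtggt
Ccl1: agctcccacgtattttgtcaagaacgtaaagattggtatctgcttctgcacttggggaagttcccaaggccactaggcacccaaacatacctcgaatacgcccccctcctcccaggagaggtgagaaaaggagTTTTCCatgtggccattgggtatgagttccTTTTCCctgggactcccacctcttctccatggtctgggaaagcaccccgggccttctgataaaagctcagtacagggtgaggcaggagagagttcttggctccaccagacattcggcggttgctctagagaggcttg
Siglec5: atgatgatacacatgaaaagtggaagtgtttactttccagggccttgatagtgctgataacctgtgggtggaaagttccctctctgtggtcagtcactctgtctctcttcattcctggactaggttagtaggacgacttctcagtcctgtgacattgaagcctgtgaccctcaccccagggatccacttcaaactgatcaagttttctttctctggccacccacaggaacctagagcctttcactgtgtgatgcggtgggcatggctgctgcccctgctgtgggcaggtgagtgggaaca
Il23a: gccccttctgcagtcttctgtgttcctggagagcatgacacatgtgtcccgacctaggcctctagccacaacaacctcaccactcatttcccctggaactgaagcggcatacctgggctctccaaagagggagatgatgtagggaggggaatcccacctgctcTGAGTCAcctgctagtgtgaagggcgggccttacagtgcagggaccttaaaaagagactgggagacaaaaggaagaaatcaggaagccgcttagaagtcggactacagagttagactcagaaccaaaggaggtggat

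The Ccl1 window held TTTTCC starting at -117 and at -87 from the TSS. The Tnfsf14 window held TGAGTCA at -152 and the Il23a window held it at -87. The windows of 1190002H23Rik and Siglec5 held neither motif. An NFAT core was present in 16.9% (13 of 77) of the lowered promoters and in 18.1% of all 10006 promoters. The AP-1 motif was present in 9.09% (7 of 77, interval 4.47 to 17.6%) of the lowered promoters and in 3.11% of all promoters (Wilson intervals, as for all shares below). The core and the AP-1 motif do not share their letters, and a match was not taken as a binding site.

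The mark of most promoters moved little. The change lay within 1.2-fold at 9270 promoters (92.6%), and the 1st and 99th percentiles of the change were -0.53 and 0.35. With FK506, 77 promoters were lowered, which is 0.77% of those compared, and 15 were raised, which is 0.15%. Protein-coding genes made up 71 of the lowered and 14 of the raised promoters. All 77 intervals of the lowered promoters lay below 0. The promoters were chosen by a 1.5-fold fall and a minimum of tags in the same counts. That choice left little room for another outcome, so the intervals below 0 add no evidence. Even at Hey2, the lowered promoter nearest to the cut, the interval ran from -1.03 to -0.15. Of the 77 intervals 28 lay wholly past 1.5-fold, and 21 promoters were lowered 2-fold or more. Among the raised promoters 4 intervals lay wholly past 1.5-fold and 2 promoters passed 2-fold. For comparison, 52 of 3147 paired regions away from a TSS were lowered (1.65%) and 29 were raised (0.922%). At the edge of the call, Hey2 was inside with 122 tags with curdlan and 72 with FK506, a change of -0.59, and Hspa4l was outside with 138 and 82 tags, a change of -0.58. On the other side Syk, at an alternative start site, was inside with 779 and 1043 tags, and Klk1b11 was outside with 171 and 226.

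**Figure D1:**
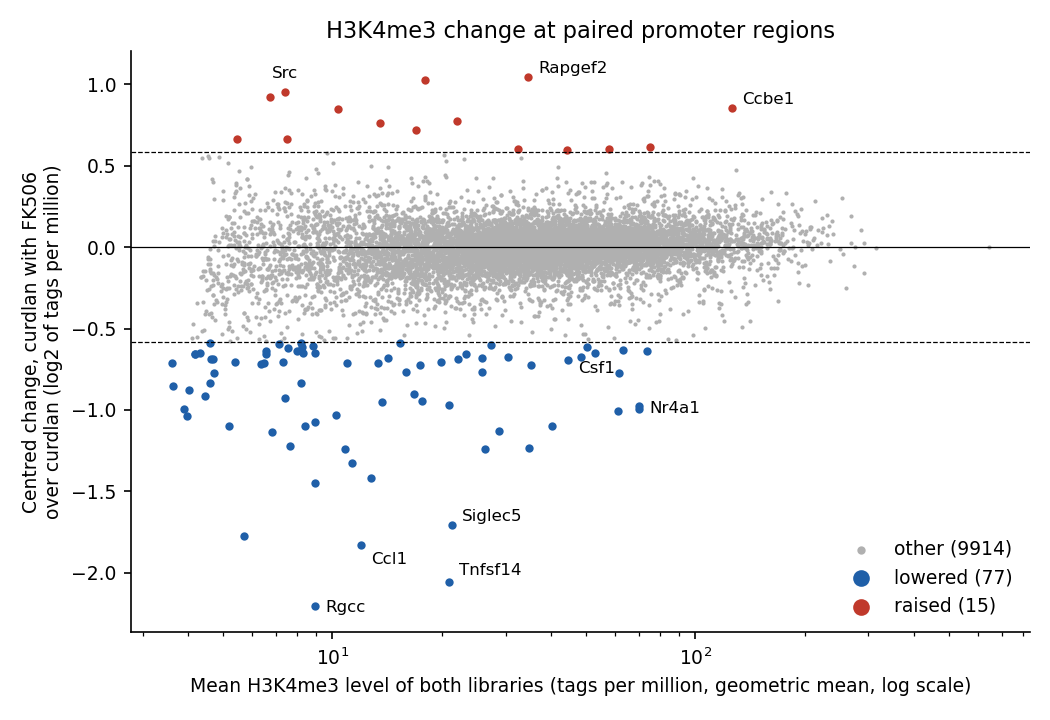
Change of H3K4me3 at the 10006 paired promoter regions against the mean level of both libraries. Each point is 1 promoter; the x axis is the geometric mean in RPM (tags per 1000000 ChIP tags) on a log scale, the y axis is the centred log2 change with FK506 over curdlan, and dashed lines mark 1.5-fold. The 77 lowered promoters reach to -2.20 at 1190002H23Rik (Rgcc) and the 15 raised promoters to 1.04 at Rapgef2.

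Genes of the 12 most lowered protein-coding promoters with 1 peak in each list coded for secreted or surface proteins of immune cells, signalling enzymes and others. All of these regions spanned the annotated TSS of the gene. Levels are given below in RPM for NT, curdlan and curdlan with FK506, in that order, and "no peak" means that no peak was called there, not that the mark was absent.

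Among secreted ligands, Tnfsf14 (LIGHT, a ligand of the TNF family that binds HVEM and the lymphotoxin β receptor) had no peak in NT, 43.4 RPM with curdlan and 10.1 with FK506. The change at this region, chr17:57330314-57334293, was -2.05 (interval -2.28 to -1.83), from 923 to 197 tags. Ccl1, a chemokine that attracts cells through CCR8, had no peak in NT and 22.97 and 6.27 RPM in the other libraries at chr11:81989944-81993791. Its change was -1.83 (interval -2.13 to -1.54). Both ligand promoters thus had a peak in each curdlan library, and the one with FK506 was the lower.

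Among receptors and adhesion molecules, Siglec5 (a sialic acid-binding lectin, named as in the annotation, a name now shared by more than 1 mouse gene) had no peak in NT, 39.2 RPM with curdlan and 11.6 with FK506. The change at chr7:50606134-50610214 was -1.71 (interval -1.93 to -1.50). Jam2, a junctional adhesion molecule, stood at 5.16, 15.1 and 5.34 RPM at chr16:84774062-84776925, a change of -1.45 (interval -1.79 to -1.13). Tnfrsf13c, the receptor for BAFF, stood at 11.4, 18.2 and 7.04 at chr15:82052736-82055987, a change of -1.33 (interval -1.62 to -1.04). The level with FK506 was close to that in NT at Jam2 and under it at Tnfrsf13c.

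Among signalling and cell death enzymes, Mapk11 (p38β, a stress-activated MAP kinase) stood at 7.50, 21.3 and 7.70 RPM at chr15:88976900-88981040, with a change of -1.42 (interval -1.70 to -1.15). Dusp14, a dual specificity phosphatase that acts on MAP kinases, stood at 20.5, 41.2 and 16.9 at chr11:83878736-83882987, with a change of -1.24 (interval -1.43 to -1.06). Casp4, which codes for the mouse caspase of the non-canonical inflammasome, stood at 8.64, 43.2 and 19.1 at chr9:5307925-5312702, with a change of -1.13 (interval -1.31 to -0.96). Of these promoters Casp4 alone kept a level with FK506 that was well above that in NT.

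The largest fall of all was at 1190002H23Rik (now Rgcc, a regulator of the cell cycle), which stood at 4.02, 19.5 and 4.11 RPM at chr14:79698590-79701972, or 67, 416 and 80 tags. Its change was -2.20 (interval -2.57 to -1.86), a 4.61-fold difference. The others were Nudt17, a Nudix hydrolase (4.26, 16.9 and 6.93 RPM, change -1.24), Slc8a2, a sodium-calcium exchanger (no peak, 11.9 and 4.93, change -1.22), and Dpf1, a subunit of BAF chromatin remodelling complexes (10.0, 10.2 and 4.52, change -1.13). At Dpf1 the curdlan and NT levels were alike and the library with FK506 was the low one.

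**Figure D2:**
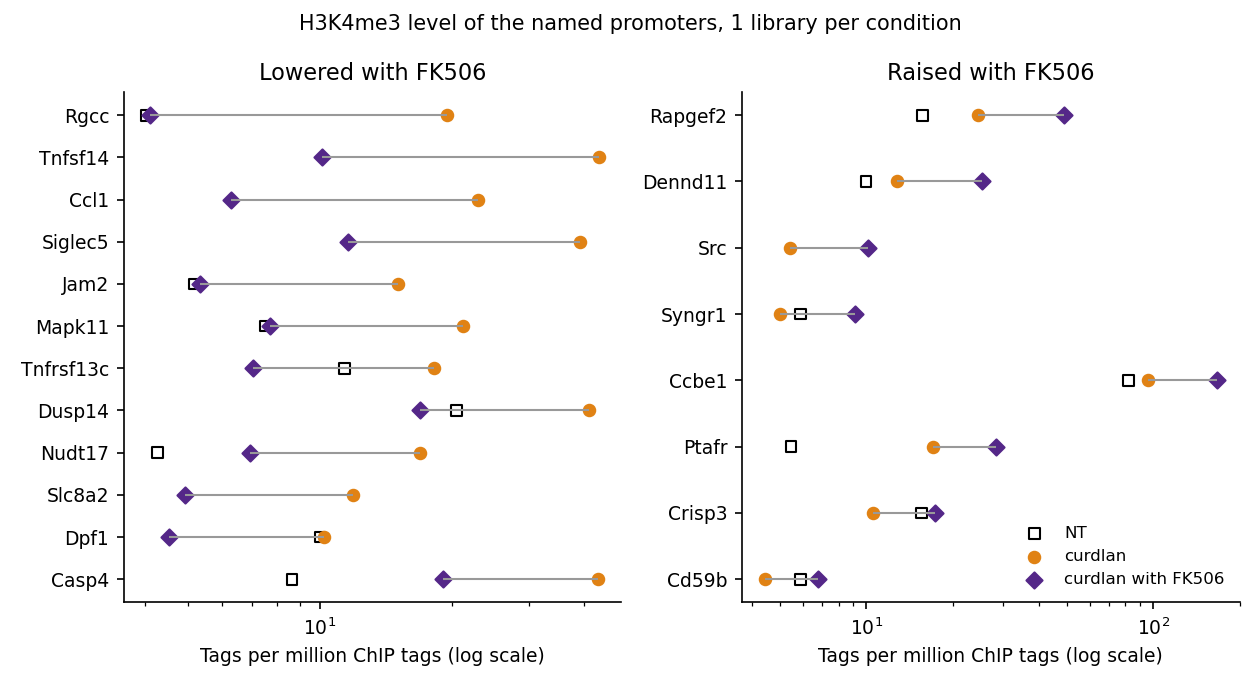
H3K4me3 level of the 12 most lowered and 8 most raised protein-coding promoters in RPM (tags per 1000000 ChIP tags) on a log scale, 1 library per condition. Squares are NT, circles curdlan and diamonds curdlan with FK506; no square is drawn where NT had no peak. At Rgcc, Jam2 and Mapk11 the NT and FK506 symbols nearly coincide, at 4.02 and 4.11, 5.16 and 5.34, and 7.50 and 7.70 RPM.

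Across all 77 lowered promoters the median level was 15.1 RPM with curdlan and 7.04 with FK506. It was 7.02 in NT, where 9 of them (11.7%) had no peak. Promoters without an NT peak were entered as 0 in all NT medians, which can lower them, although no peak does not mean no mark. Over all 10006 promoters the medians were 36.9, 35.5 and 40.3, and 22 promoters (0.220%) had no peak in NT. The median of the lowered promoters thus lay under that of all promoters in every library. The curdlan library enters both the change with FK506 and any change from NT, so the 3 levels are given side by side and no relation between the changes was read.

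Other lowered promoters, chosen here after their values were seen, included further immune and signalling genes. Il1rn, the antagonist of the interleukin 1 receptor, had no peak in NT, 12.5 RPM with curdlan and 5.65 with FK506, a change of -1.10. The orphan receptor gene Gpr35 stood at 71.5, 88.2 and 42.6 (change -1.005) and Fam107b at 51.0, 100.5 and 49.0 (change -0.99), which were among the highest levels of the lowered promoters. 4632428N05Rik (now Vsir, the inhibitory receptor VISTA) stood at 21.1, 29.8 and 14.7, a change of -0.97. The SLAM family receptor genes Slamf7 and Slamf9 changed by -0.73 and -0.68. Among genes of lipid and antigen receptor-type signalling, Dgkz (a diacylglycerol kinase) changed by -0.94, Ubash3b (a phosphatase that acts on Syk-type kinases) by -0.77 and Plcg1 (phospholipase Cγ1) by -0.64. Abca1, a cholesterol efflux pump, changed by -0.71, and the retinoid receptor genes Rxra and Rarg by -0.66 and -0.61. The most lowered noncoding gene was 4930447M23Rik, from 228 to 59 tags, a change of -1.78.

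Raised promoters were fewer, with a median change of 0.76 against -0.73 for the lowered ones, and the largest rise was smaller in size than the largest fall. Rapgef2, an activator of Rap GTPases, stood at 15.7, 24.4 and 48.8 RPM at chr3:78972266-78978634, a change of 1.04 (interval 0.89 to 1.201). E330009J07Rik (now Dennd11, a DENN domain protein) stood at 9.96, 12.8 and 25.3, a change of 1.02 (interval 0.81 to 1.24). Src, a tyrosine kinase, had no peak over this region in NT and 5.40 and 10.1 in the other libraries, a change of 0.95 (interval 0.61 to 1.30) that rests on 115 and 197 tags. Ptafr, the receptor for platelet-activating factor, stood at 5.46, 17.1 and 28.4, a change of 0.77 (interval 0.58 to 0.97). These 4 promoters were highest with FK506 and had their lowest level, or no peak, in NT.

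The other raised promoters of the named set were Ccbe1, a secreted factor of lymphatic growth (82.0, 95.5 and 167.1 RPM, change 0.85), Syngr1, a protein of synaptic-type vesicles (5.88, 4.98 and 9.14, change 0.92), Crisp3, a secreted cysteine-rich protein (15.5, 10.5 and 17.3, change 0.76), and Cd59b, an inhibitor of the complement attack complex (5.88, 4.42 and 6.78, change 0.66). At Syngr1, Crisp3 and Cd59b the curdlan library was the low one, and at Cd59b the interval ran from 0.27 to 1.06. Nod2, a cytosolic sensor of bacterial wall peptides, and Gpr84, a receptor for medium-chain fatty acids, were also raised, by 0.62 and 0.66, and were named after their values were seen. The raised promoters had a median level of 14.2 RPM in NT, 13.5 with curdlan and 25.3 with FK506. The NT median takes the 2 raised promoters without an NT peak as 0.

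Peak length moved with the tags. Since the tags of each list were counted inside that list's own peak, a shorter peak also holds fewer tags, so length and density were read beside the tags. The median length of the lowered regions was 2866 bp with curdlan and 1849 bp with FK506, against 2909 and 2844.5 bp over all promoters. The centred change of length was below 0 in 71 of the 77, and that of tags per kb of peak in 66. A 1.5-fold fall was met by length in 22, by tags per kb in 25, by both in 4 and by neither in 34. Among the 15 raised regions a 1.5-fold rise was met by length in 3, by tags per kb in 5, by both in 0 and by neither in 7.

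In the lowered regions the medians of both edges lay nearer to the TSS with FK506. The shift in bp was larger inside the gene, where the peak also reached farther with curdlan. Shifts as a share of each distance were not compared, and the regions were chosen on tags counted inside these edges. In the 74 lowered regions with 1 peak in each list, the median distance from the TSS to the edge inside the gene was 1869 bp with curdlan and 1311.5 bp with FK506, and the median difference was -431.5 bp. The edge upstream of the TSS lay at 928 and 689.5 bp, with a median difference of -115.5 bp. Over all promoters with 1 peak in each list the median differences were -26 bp inside the gene and -16 bp upstream. In the 14 raised regions with 1 peak in each list the inner edge lay at a median of 2195.5 bp with curdlan and 3162.5 bp with FK506. The median difference within regions was smaller, 346 bp at the inner edge and 108 bp upstream.

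Named promoters differed in which of the measures fell. 1190002H23Rik shrank from 3383 to 1104 bp, and its tags per kb went from 123 to 72.5. At Mapk11 the length went from 4141 to 1837 bp and at Tnfrsf13c from 3252 to 1540 bp, while their tags per kb changed by -0.28. Siglec5 kept most of its length, 4081 and 3375 bp, and its tags per kb went from 204 to 67.0. Dusp14 was of the same kind, with 4252 and 3364 bp and 206 and 97.8 tags per kb. At Dpf1 the length went from 3280 to 1453 bp and the tags per kb changed by 0.01, so its fall in tags was a fall in length. The deposited fold enrichment over local background, which also takes in the input, was lower than its own median change in 57 of the 77 lowered promoters and higher in 13 of the 15 raised. Its centred change had the other sign at Jam2 (0.11), Nudt17 (0.15), Slc8a2 (0.37), Dpf1 (0.02), Syngr1 (-0.55) and Ccbe1 (-0.25), and the same sign at the other 14 of the 12 most lowered and 8 most raised promoters. Of the lowered promoters named after their values were seen, Slamf7 also had the other sign (0.50). By fold enrichment the fall stayed short of 1.5-fold at Ccl1 (-0.32), Dusp14 (-0.18) and Casp4 (-0.44). The rise stayed short of it at Rapgef2 (0.34), E330009J07Rik (0.11) and Ptafr (0.10), and passed it at Src (0.79), Crisp3 (1.89) and Cd59b (0.59). With a reciprocal overlap of 50% the regions of 1190002H23Rik, Mapk11, Tnfrsf13c, Slc8a2 and Dpf1, were no longer paired.

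**Figure D3:**
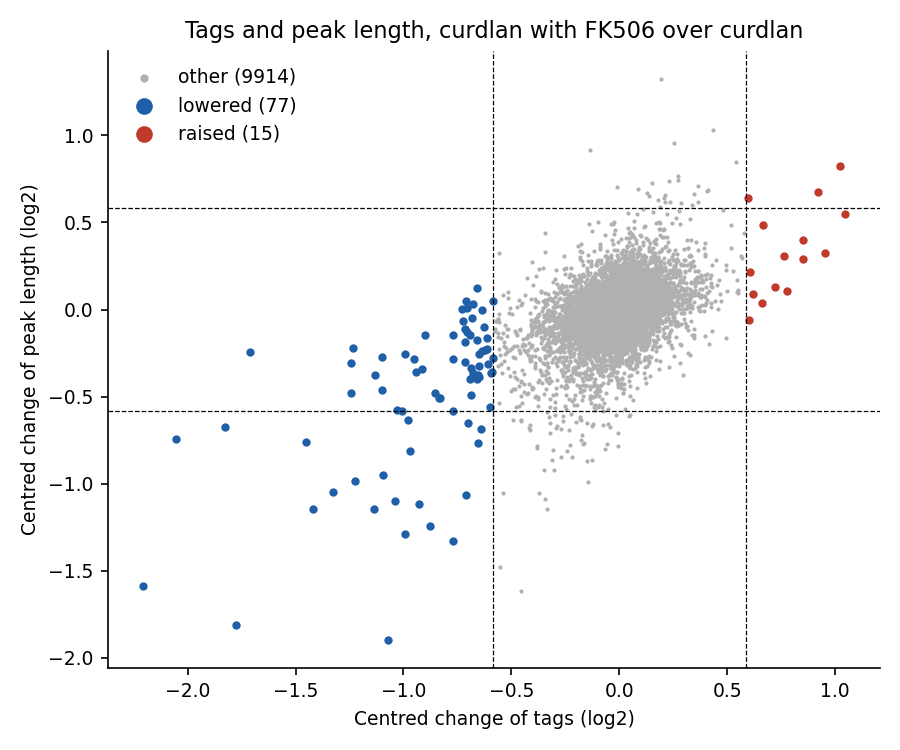
Centred log2 change of peak length against that of tags, curdlan with FK506 over curdlan, at the 10006 promoter regions. Each point is 1 promoter and dashed lines mark 1.5-fold on each axis; 71 of the 77 lowered promoters lie below 0 on the length axis and 14 of the 15 raised promoters above it.

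Gene lists of the pathway were read as counts and medians, since no test was possible. The 12 of 21 target genes of the study that had a paired peak at a TSS had a median change of -0.40 (order-statistic range -0.95 to -0.21), against 0.00 over all promoters. The median was -0.18 (-0.86 to 0.06) by fold enrichment and -0.16 (-0.67 to 0.14) by tags per kb, and both ranges reach above 0. These ranges describe the spread among the 12 genes only. The genes were measured in the same pair of libraries and several are neighbours on chromosome 11, so they are no replicates. The study chose these genes in the same cell line by NFATc2 binding and by expression with and without FK506, so they are no independent evidence of direction. They comprise cytokines and chemokines, and 4 were lowered and 0 raised. Beside Tnfsf14 and Ccl1 these were Il23a, the subunit particular to interleukin 23, which had no peak in NT and 19.4 and 9.71 RPM (change -0.95, interval -1.21 to -0.70, and -0.19 by fold enrichment), and Csf1, the macrophage growth factor, at 23.5, 57.5 and 34.5 (change -0.69, interval -0.83 to -0.56). Tnfsf8, the ligand of CD30, changed by -0.46 and Ccl3 by -0.38, both short of 1.5-fold. Tnfsf9, the ligand of 4-1BB, and Ccl2 changed by 0.04 and 0.01. The 9 others, among them Il2, Il12b and Csf2, had no peak within 1 kb of a TSS in any H3K4me3 list. The study describes H3K4me3 at Il2 and Il12b that rose with curdlan and fell with FK506, by ChIP-seq and ChIP-PCR. Signal under the calling threshold at these genes is not known from the peak lists.

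Egr and Nr4a genes are immediate early transcription factors, several of which are known NFAT targets in lymphocytes. They were listed with the Egr corepressor genes Nab1 and Nab2. All 8 genes of this list that could be measured had a change of tags below 0. Their median was -0.26, against -7.4e-05 over all promoters. Nr4a1, an orphan nuclear receptor gene, was the 1 lowered, at 7.02, 99.8 and 49.1 RPM and a change of -0.98 (interval -1.09 to -0.87). By fold enrichment its change was -0.29, short of 1.5-fold. Egr1 changed by -0.39, Nr4a2 by -0.33, Egr2 by -0.27 and Nr4a3 by -0.07. By tags per kb the list was split. Egr2 (0.41), Egr3 (0.44), Nab1 (0.09) and Nr4a3 (0.09) lay above 0 by that measure. Egr1 (-0.16), Nab2 (-0.10), Nr4a1 (-0.35) and Nr4a2 (-0.28) lay below it. Egr4 had no peak.

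The genes of calcineurin and NFAT themselves changed little. None of 14 measured was lowered or raised, and the median was -0.06. Nfatc2 changed by 0.29 and Nfatc1 by -0.23, Rcan1 (an inhibitor of calcineurin that NFAT is known to induce) by -0.19 on 220 and 171 tags, and Nfat5 by -0.30. AP-1 and NF-κB genes, whose products act beside NFAT, gave medians of 0.04 and -0.01 over 14 measured genes each, with 0 lowered and 0 raised in both. Fos changed by 0.38 and Fosb by 0.29. Nfkb1 and Nfkb2 both changed by -0.13, and Tnip1 by 0.40.

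Among 19 measured genes of dectin-1 signalling the median was -0.01. The receptor gene Clec7a changed by -0.08 and the adaptor gene Card9 by 0.21. Src was raised, as above, and Fyn, another Src family kinase, was lowered at a region that stood at 24.4, 39.6 and 24.04 RPM (change -0.68). The main promoter of Syk changed by 0.34. Of 10 measured dual specificity phosphatase genes Dusp14 alone passed 1.5-fold, while Dusp2 changed by -0.34 and Dusp1 by 0.26, and the median was 0.07.

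Costimulation and maturation genes, which mark activated dendritic cells, had a median of 0.06 over 15 measured. Cd40, Cd80, Cd86 and Cd83 changed by 0.19, 0.09, -0.01 and -0.02. Ccr7, the chemokine receptor that guides dendritic cells to lymph nodes, was lowered from 8.03 to 3.70 RPM (171 and 72 tags, change -1.07), and Marcksl1 from 6.72 to 3.80 (143 and 74 tags, change -0.78). At both the tags per kb changed by 0.08, so the peaks were shorter and not sparser, and by fold enrichment Ccr7 changed by 0.27. The summits of Fyn, Ccr7 and Marcksl1 lay between 1066 and 1572 bp from the nearest TSS, so these 3 peaks reach the 1 kb window but are not among the 77 lowered promoters. The cytokine genes Il1b, Il6 and Il10 had no peak at a TSS in any of the 3 lists. Cd70, the ligand of CD27, had a peak of 139 tags with curdlan and none in the other lists.

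Prostaglandin and leukotriene genes had a median of 0.05 over 11 measured, with 0 lowered and 0 raised, and Ptgs2, the inducible cyclooxygenase gene, had a peak of 79 tags in the curdlan list alone. Interferon-stimulated genes had a median of -0.15, against -7.4e-05 over all promoters, and 13 of 15 lay below 0. Of these Rsad2 (viperin, an antiviral enzyme) was lowered, at 5.52, 11.1 and 6.06 RPM (change -0.83). By fold enrichment (-0.19) and by tags per kb (-0.33) Rsad2 stayed short of 1.5-fold. Ifih1 and Ifit1 changed by -0.35 and -0.32. The 12 housekeeping genes had a median of 0.03 and a range of -0.25 to 0.19. The 76 measured ribosomal protein genes had a median of 0.02 and a range of -0.15 to 0.16, with 0 lowered and 0 raised.

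**Figure D4:**
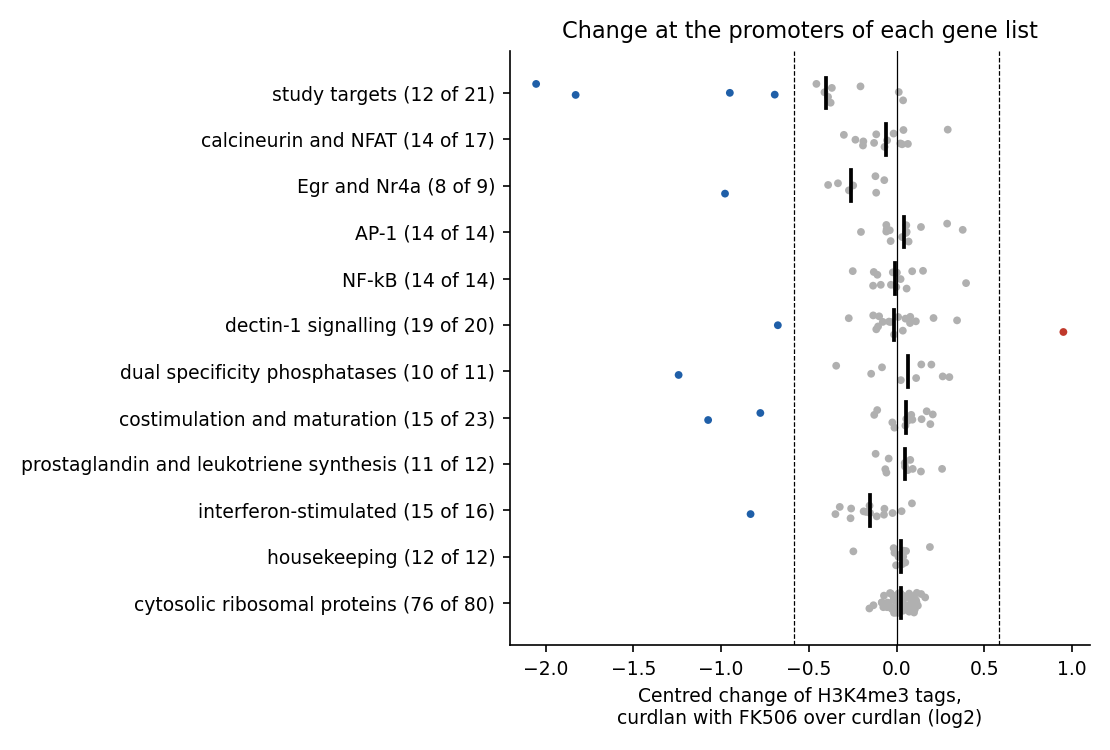
Centred log2 change of H3K4me3 tags with FK506 over curdlan for the measured genes of each list, with the number measured of the number listed in brackets. Points are genes, coloured where lowered or raised, black bars are medians and dashed lines mark 1.5-fold; the median is -0.40 for the study targets, -0.26 for Egr and Nr4a, -0.15 for interferon-stimulated genes and between -0.06 and 0.07 for the others.

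NFATc2 summits, which the choice of promoters did not use, lay within 20 kb of the TSS at 47 of the 77 lowered promoters, or 61.0% (interval 49.9 to 71.2%). The share was 34.2% (33.3 to 35.2%) over all promoters and 40.0% (6 of 15, 19.8 to 64.3%) for the raised ones. For the 1405 promoters lowered 1.5-fold by fold enrichment in place of tags it was 29.9%, under that of all promoters. Within 1 kb the shares were 15.6% for lowered and 7.90% for all promoters, and within 5 kb they were 37.7% and 17.1%. A summit lay inside the paired region itself at 17 of the 77 (22.1%, 14.3 to 32.5%) and at 12.7% of all. The shares were not matched for level or distance to other genes, and neighbouring promoters can share a summit.

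The share was higher where the change was larger in size, on both sides of 0 up to 1.5-fold. It was lowest, at 30.8%, among the 6234 promoters with changes between -0.10 and 0.10. It was 39.6% between -0.30 and -0.10, 52.5% between -0.58 and -0.30, and 60.7% and 61.9% in the lowered promoters up to and past 2-fold. On the other side it was 35.1% between 0.10 and 0.30 and 49.7% between 0.30 and 0.58, above the 40.0% of the 15 raised promoters.

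**Figure D5:**
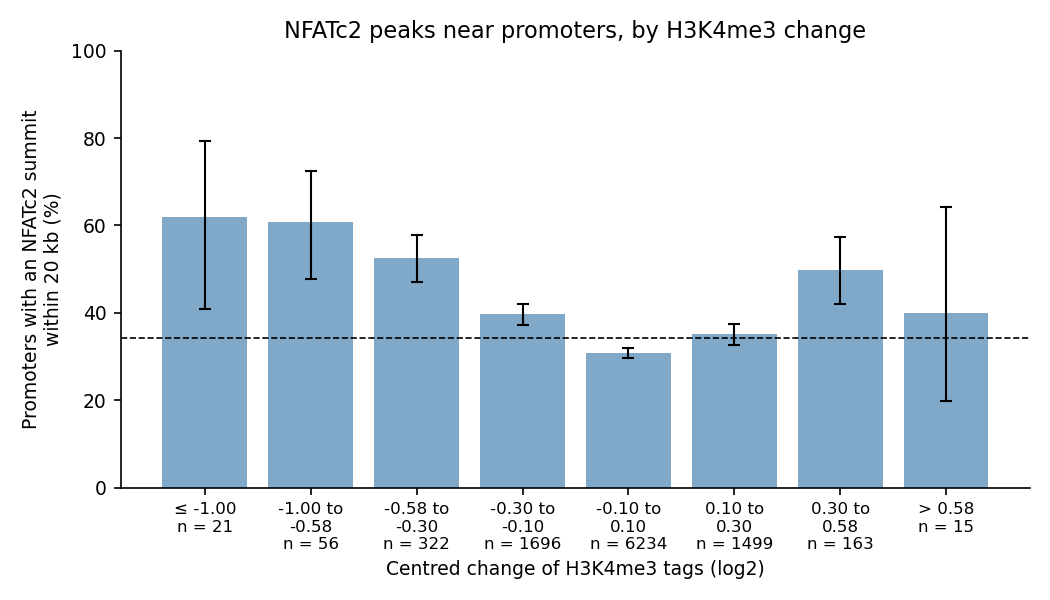
Percent of promoters with an NFATc2 summit within 20 kb of the TSS, by the centred log2 change of H3K4me3 tags. Bars are shares with 95% Wilson intervals, n is the number of promoters and the dashed line is the 34.2% of all promoters; the lowest bar is the 30.8% of promoters nearest to 0.

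At the named genes, the nearest summit lay 0.152 kb from the TSS at Tnfsf14, 0.173 kb at Siglec5, 0.196 kb at Il23a, 0.34 kb at Nr4a1 and 0.511 kb at 1190002H23Rik, which held 2 summits in its region. The NFATc2 peak at Siglec5 had 235 tags and that at Tnfsf14 had 73. It lay 18.1 kb away at Ccl1 and 62.8 kb away at Mapk11, and 1953 kb away at Casp4. Among raised promoters, Rapgef2 had a summit at 0.644 kb and Src at 1.44 kb, both inside the region.

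Base composition was read around the TSS. The median CpG observed-to-expected ratio in the 500 bases on each side of the TSS was 0.686 in the lowered promoters, 0.306 in the raised and 0.746 in all, and the median GC content was 62.7, 52.2 and 59.6%. Tnfsf14, Ccl1, Siglec5 and Casp4 had ratios of 0.311, 0.206, 0.239 and 0.203, well under the median of the lowered promoters. They were the lowest of the 12 most lowered protein-coding promoters and were picked after their values were seen. Jam2, Nudt17, Slc8a2 and Tnfrsf13c lay between 0.413 and 0.609. 1190002H23Rik and Dpf1 lay at 0.686, and Mapk11 (0.704) and Dusp14 (0.815) above the median. The 15 raised promoters are few, and the middle 50% of their ratios ran from 0.172 to 0.441.

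Peaks of 1 list with no overlapping peak in the other were weak for the most part. There were 851 in the curdlan list and 704 with FK506. Of these 176 and 114 lay at promoters, with medians of 70 and 61 tags, and 114 and 82 of them had a peak in NT. Among the largest curdlan peaks without a partner, Mertk, a receptor for the uptake of dying cells, had 396 tags with curdlan and 249 in NT, and Ehd1, a protein of endocytic recycling, had 349 and no NT peak. Wsb2 had 492 tags and Cst7, the gene of cystatin F, had 271, and the peak of Wsb2 lay 2305 bp from a peak with FK506.

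The largest FK506 peaks without a partner lay at Pik3cg, a phosphoinositide 3-kinase of myeloid cells (380 tags, and 421 in NT), Entpd7 (241), Katnal1 (211), Slfn1 (199) and Baz1a (191), and each of these 5 overlapped an NT peak. The peak of Pik3cg lay 1156 bp from a curdlan peak. An NFATc2 summit lay within 20 kb of 29.0% (22.8 to 36.1%) of the curdlan-only promoter peaks and of 24.6% (17.6 to 33.2%) of those with FK506 only. The share was 34.2% for the 10006 paired promoters, which lies inside the first interval. The sets are unlike, since the unpaired peaks had no minimum of tags and only 40 and 21 of them had at least 100. A missing peak means that the signal stayed under the calling threshold, and the tags there are not known.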

How the data were processed

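Per the labels, the authors aligned reads with Bowtie (genome build mm9), and MACS, 1.4.2 in the file headers, called peaks at p of 1e-05 against the input of each condition, without pooling. Per the file headers the totals before and after the duplicate filter were equal. The deposited lists hold for each peak a count of tags, not normalized, a fold enrichment (ratio to local background), a score (10 times the negative log10 of p), limited to 3100, and an FDR in percent. The curdlan, curdlan with FK506, NT and NFATc2 lists were used.

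Pairing, centring and intervals were computed with scipy 1.17.1, pandas 2.3.3 and numpy 2.4.6 under Python 3.11.15. Sequences were read with pysam 0.24.0 and figures drawn with matplotlib 3.10.9. The steps were checked on simulated counts with the same peak edges in both lists, so edges that differ between lists were not simulated. TSSs came from GENCODE M1 (mm9, 37252 genes). Genes were named by rule: the 12 most lowered and 8 most raised protein-coding promoters with 1 peak in each list, genes of fixed lists measured at the peak with most tags within 1 kb of a TSS, and the 5 largest unpaired promoter peaks of each list. Of these, 1 is not reported here. Members and lists were chosen with earlier results of these data known. Depth limits each value as its counting interval shows. Alternatives changed the measure, centring, pairing, filters, fold and windows.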

Additional observations from a re-analysis of the deposited data

How the results depend on the processing

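No paired analysis was possible because each condition has 1 library, and no library could be left out. The 77 lowered and 15 raised promoters became 42 and 34 by tags per kb, 127 and 46 with a reciprocal overlap of 50%, 21 and 2 at 2-fold, and 1405 and 1463 by fold enrichment, whose centred log2 ratio had an SD of 0.557 over promoters against 0.163 for tags. With 300 tags or more, 41 promoters were lowered. Of the 77, 25 were among those lowered by tags per kb, 25 by fold enrichment and 61 with the 50% overlap. Of 27 named promoters past 1.5-fold, 9 stayed past it by fold enrichment and 11 by tags per kb. With the 50% overlap 21 were still paired, without 1190002H23Rik, Mapk11, Tnfrsf13c, Slc8a2, Dpf1 and Ccr7, and with peaks of p 1e-10 or less 22, without Ccl1, Siglec5, Src, Syngr1 and Ccr7. Under the 9 other alternatives for the lowered and the 10 others for the raised, the counts ranged from 66 to 99 and from 10 to 20. The median of the study targets was -0.18 by fold enrichment and -0.16 by tags per kb.

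The share of lowered promoters with an NFATc2 summit nearby was 15.6, 37.7 and 76.6% at 1, 5 and 50 kb, 42.9% with NFATc2 peaks of p 1e-10 or less (19.0% of all promoters) and 29.9% for promoters lowered by fold enrichment, against 34.2% of all. Unpaired peaks of p 1e-10 or less numbered 221 with curdlan and 178 with FK506. By fold enrichment the direction turned at Jam2 (0.11), Nudt17 (0.15), Slc8a2 (0.37), Dpf1 (0.0175), Ccr7 (0.27), Syngr1 (-0.55) and Ccbe1 (-0.25), and by tags per kb at Dpf1 (0.00993), Ccr7 (0.0831) and Marcksl1 (0.0765). The causes were not tested. Fold enrichment divides by an input of fewer tags than the ChIP, and tags per kb removes the part of a change that is peak length.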
